A study of Mus musculus with 20 samples.

Results

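Heparan sulfate sulfotransferases were followed in the amygdala of mice with and without the serotonin transporter 5-HTT, after a brief stressor or a control handling. Probe sets were taken where their only gene symbol was one of 10 family members, which gave 10 probe sets, 1 per gene, of 28767 in the table. Hs3st3a1 was picked because the study listed it for its difference between KO stress and WT stress, and so was chosen by its measured values there, with a criterion of more than 1.5-fold and p under 0.05 without adjustment. Its difference in that comparison is therefore a description and carries no test here. The other 9 genes were added by family name.

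Each array held the RNA of the left and right amygdala of 1 male C57BL/6 mouse aged 7 months, and every mouse descended from heterozygous parents and was housed alone before the experiment. The groups, of 5 mice each, were KO stress (5-HTT knockout, 1 min in water of 22 °C by the labels), KO con (5-HTT knockout, 1 min in the home cage), WT stress (wildtype, the same water exposure) and WT con (wildtype, home cage). The knockout is constitutive, so that 5-HTT was lacking throughout development and in all tissues. Values are log2 signals of a whole-transcript array as the authors normalized them, without detection calls, and they rank arrays within a probe set but not genes against each other. The amygdala is bulk tissue, in which fewer cells of a type and less RNA per cell cannot be told apart.

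Array medians lay between 6.59 and 6.82, and pairs of arrays correlated at 0.948 to 0.996. WT stress replicate 1 and WT con replicate 1 correlated least with the rest. The counts and calls of sulfotransferase and heparan sulfate pathway genes between KO stress and WT stress are also given without them. Those of cell type markers are given with all arrays only. Slc6a4, the gene of 5-HTT, had the higher signal in all 10 arrays labelled KO, at 8.10 to 8.38 in KO stress and 8.11 to 8.20 in KO con, against 6.30 to 6.55 in WT stress and 5.82 to 7.82 in WT con. The signal therefore separated the genotypes, but in the direction opposite to a loss of transcript, and KO and WT below stand for the arrays labelled so.

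Heparan sulfate is a sugar chain carried by cell-surface and matrix proteins. Sulfotransferases of the Golgi decorate it in sequence, with N-sulfation by the Ndst enzymes first, 2-O-sulfation of uronic acid by Hs2st1 next, 6-O-sulfation of glucosamine by the Hs6st enzymes after it, and the rare 3-O-sulfation by the Hs3st enzymes as the last step. The resulting patterns set which growth factors, guidance cues and adhesion proteins bind the chain, and in the brain heparan sulfate is known for its part in axon guidance and synapse formation. Hs3st1 and Hs3st5 can make the antithrombin-binding site, while Hs3st2, Hs3st3a1, Hs3st3b1 and Hs3st4 are known for making sites that glycoprotein D of herpes simplex virus binds.

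Promoter windows of Hs3st3a1 and Hs3st2 are shown because both genes had the largest differences between KO stress and WT stress among the 10, and that of Hs3st3b1 as the closest relative of Hs3st3a1. RefSeq gave windows for all 10 genes, with a pair of them for Hs6st2. The sequences are from RefSeq, build GRCm38.p6, from 250 bases before to 50 bases after the start site and 5′ to 3′ on the strand of the gene. The windows are chr11:64435082-64435381 (plus strand) for Hs3st3a1, chr7:121392046-121392345 (plus strand) for Hs3st2 and chr11:63922235-63922534 (minus strand) for Hs3st3b1. Capitals mark matches on either strand to the motifs searched, which were the TATA box (TATAAA), the CCAAT box (letters as its name), the GC box (GGGCGG), the full cAMP response element (TGACGTCA), the short form of that element (TGACG, which the full one contains) and the binding site of EGR factors (GCGNGGGCG).
Hs3st3a1: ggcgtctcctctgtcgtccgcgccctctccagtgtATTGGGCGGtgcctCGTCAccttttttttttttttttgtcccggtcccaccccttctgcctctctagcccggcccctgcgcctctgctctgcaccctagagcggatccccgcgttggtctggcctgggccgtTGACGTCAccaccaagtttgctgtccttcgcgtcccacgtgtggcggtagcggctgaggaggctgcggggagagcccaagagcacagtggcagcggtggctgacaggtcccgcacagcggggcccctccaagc
Hs3st2: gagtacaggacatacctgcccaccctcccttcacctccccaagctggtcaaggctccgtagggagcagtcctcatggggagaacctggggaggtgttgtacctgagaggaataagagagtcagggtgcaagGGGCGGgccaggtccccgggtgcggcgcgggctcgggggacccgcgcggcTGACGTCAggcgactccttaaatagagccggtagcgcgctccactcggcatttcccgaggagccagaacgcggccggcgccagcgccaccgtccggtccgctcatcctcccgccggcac
Hs3st3b1: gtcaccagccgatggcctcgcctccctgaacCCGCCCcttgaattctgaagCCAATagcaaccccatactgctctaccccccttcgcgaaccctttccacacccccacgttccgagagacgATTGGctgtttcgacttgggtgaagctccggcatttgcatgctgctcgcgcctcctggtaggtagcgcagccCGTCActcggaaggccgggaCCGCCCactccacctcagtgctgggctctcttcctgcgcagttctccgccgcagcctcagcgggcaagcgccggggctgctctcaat

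TGACGTCA, the full cAMP response element that CREB-family factors are known to bind, was present in the windows of 2 of the 10 genes, Hs3st3a1 and Hs3st2, and in 1.79% of 32851 promoter windows of the annotation. It began at position -83 from the start site in Hs3st3a1 and at position -69 in Hs3st2. The shorter TGACG was present in 5 of 10 genes against 20.8% of all windows, including Hs3st3b1, which held it once at position -57. GGGCGG was present in 8 of 10 against 35.7%, CCAAT in 5 of 10 against 37.4%, TATAAA in 1 of 10 (a window of Hs6st2) against 13.6%, and GCGNGGGCG in 1 of 10 (Hs6st1) against 5.55%. The windows of Hs3st3a1 and Hs3st2 held 23 and 27 CpG dinucleotides, against a median of 7 over all windows. All windows of the family lay above that median, with 24 in Hs3st1, 23 in Hs3st3b1, 47 in Hs3st4 and 9 in Hs3st5. Hs6st1 held 47, Hs6st2 held 12 and 33, Hs6st3 held 41 and Hs2st1 held 32. These matches describe the letters of the windows and were not tested against binding or expression.

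Hs3st3a1 encodes a 3-O-sulfotransferase. Array values here and below are given for replicates 1 to 5 of a group. Its log2 signal in KO stress was 6.04, 7.10, 6.41, 7.13 and 6.70, and in WT stress it was 5.95, 5.97, 5.95, 5.95 and 6.26. In KO con it was 5.81, 6.18, 6.52, 6.38 and 6.27, and in WT con 5.95, 6.51, 6.59, 6.13 and 6.13. KO stress was the group with the highest values, with 4 of its 5 arrays above all WT stress arrays and 3 above all KO con arrays, and KO stress replicate 1 lay within the range of the other groups.

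The mean of Hs3st3a1 was 6.67 ± 0.47 in KO stress and 6.02 ± 0.14 in WT stress (SD, n = 5 each), a difference of 0.66 (SE 0.19) or 1.58-fold, just inside the study's fold of 1.5. KO stress exceeded KO con (6.23 ± 0.27) by 0.44, and WT stress lay below WT con (6.26 ± 0.27), with a difference of -0.25. The response to stress thus differed between genotypes by 0.69 (SE 0.26). All these contrasts share the arrays on which the gene was listed and are given without a test. Only KO con against WT con shares none of them, and there the difference was -0.03 (SE 0.19), with an adjusted p of 0.985 in limma and a p of 0.849 in the exact two-sided permutation test, whose smallest possible p with 5 against 5 arrays is 0.00794.

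**Figure D1:**
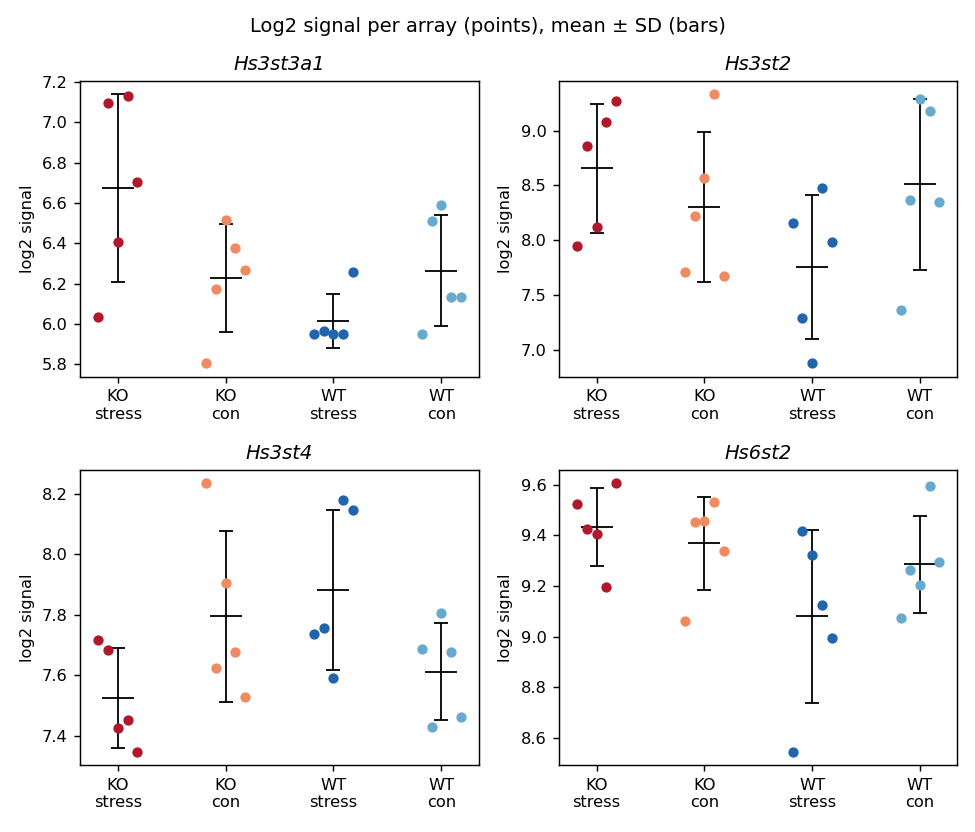
Log2 signal (y axis) of Hs3st3a1, Hs3st2, Hs3st4 and Hs6st2 in KO stress, KO con, WT stress and WT con (x axis), with a point per array and bars for mean ± SD (n = 5). In Hs3st3a1, 4 of 5 KO stress arrays lie above all WT stress arrays, and in Hs6st2 a single WT stress array is at 8.54.

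The low values of Hs3st3a1 were partly identical. Exactly 5.95068 was deposited for WT stress replicates 1, 3 and 4 and for WT con replicate 1, and 6.13325 for 2 WT con arrays. A value shared by at least 4 arrays occurred in 25.4% of all probe sets, in 15.6% of those with a mean of 5 or more and in 1 of the 9 other members. The SD of 0.14 in WT stress thus rests on few distinct values, and what these equal values come from was not tested. Leaving out KO stress replicate 2 or 4 brought the difference between KO stress and WT stress to 0.55, and leaving out KO stress replicate 1 brought it to 0.82.

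Hs3st3b1 is the closest relative of Hs3st3a1, and a single protein-coding gene lies between them on chromosome 11. It had a mean of 6.07 ± 0.18 in KO stress, 5.93 ± 0.12 in KO con, 6.09 ± 0.17 in WT stress and 6.10 ± 0.20 in WT con. KO stress and WT stress differed by -0.01 (SE 0.11), and values of all 4 groups overlapped, from 5.76 to 6.38. Slc6a4 lies on the same chromosome as both genes, with 267 protein-coding genes between it and Hs3st3a1.

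The other 9 genes were compared between the groups by limma on all probe sets. Between KO stress and WT stress, 3 of 9 passed an unadjusted p of 0.05, with Hs3st2 and Hs6st2 higher and Hs3st4 lower in KO stress, against 9.28% of all probe sets. The median difference was 0.00 over the 9 genes and -0.03 over all probe sets. No gene of the 9 passed after adjustment over all probe sets, where the smallest adjusted p was 0.530, and 1 probe set in the whole data did. KO con and WT con differed in 0 of 9 genes (background 3.57%), KO stress and KO con in 0 of 9 (1.13%), and WT stress and WT con in 0 of 9 (3.54%). In the interaction of genotype and stress 1 of 9 genes, Hs3st4, passed the unadjusted threshold (2.52%). With the replicate number as a block within the paired WT arrays, 1 of 9 genes, Hs6st3, passed between WT stress and WT con, where 3.59% of all probe sets did in the same fit. Without WT stress replicate 1 and WT con replicate 1, the difference between KO stress and WT stress was 0.64 for Hs3st3a1, 1.001 for Hs3st2, -0.40 for Hs3st4 and 0.22 for Hs6st2, and 2 of 9 genes passed there, Hs3st2 and Hs3st4, against 5.09% of all probe sets in that fit.

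**Figure D2:**
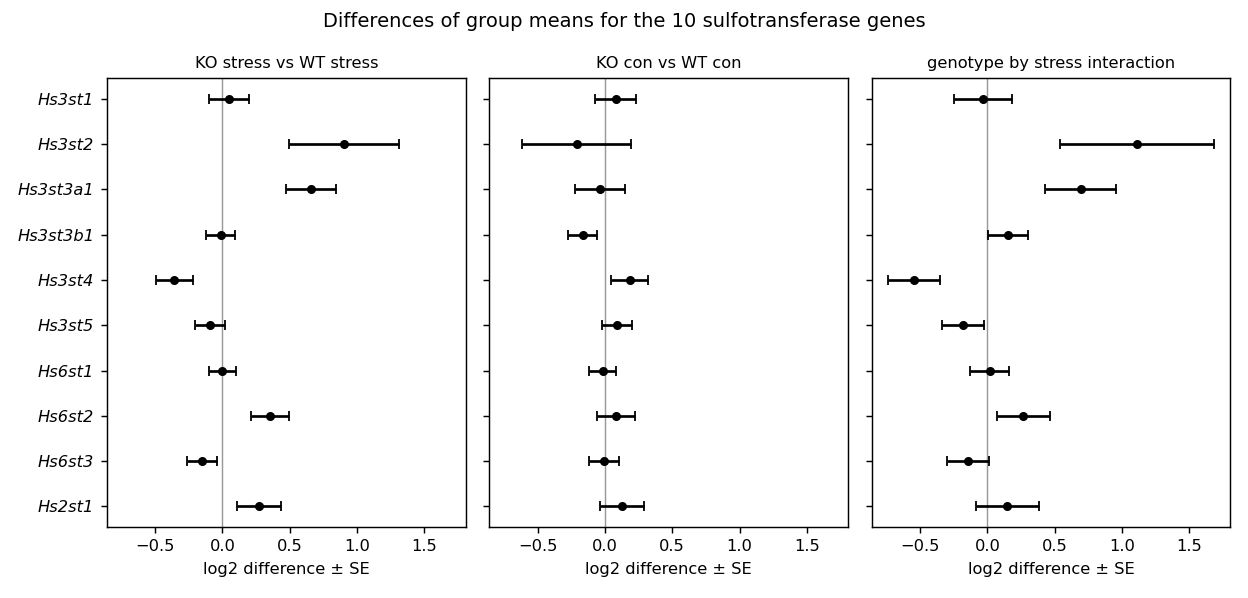
Log2 differences (x axis, points with SE) of the 10 genes (y axis) for KO stress minus WT stress, KO con minus WT con, and the interaction, which is the response to stress in KO minus that in WT. Hs3st2 and Hs3st3a1 have the largest positive differences in KO stress against WT stress, and Hs3st4 the most negative in the interaction.

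Hs3st2, a 3-O-sulfotransferase known for its expression in neurons, had the widest range of the 10 genes, 2.46 over the 20 arrays. Its log2 signal was 7.95, 8.86, 8.12, 9.08 and 9.27 in KO stress, and 8.15, 7.29, 6.87, 8.47 and 7.98 in WT stress. KO con had 7.71, 8.22, 8.56, 9.33 and 7.67, and WT con 7.36, 8.36, 9.29, 9.18 and 8.35. The groups overlapped, although 3 of 5 KO stress arrays were above all WT stress arrays, and the lowest values were WT stress replicates 3 and 2.

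The mean of Hs3st2 was 8.66 ± 0.59 in KO stress and 7.75 ± 0.66 in WT stress (SD, n = 5 each), a difference of 0.90 (SE 0.41), or 1.87-fold. Limma gave an unadjusted p of 0.0394 and an adjusted p of 0.530, and the exact two-sided permutation test gave 0.0714. By the methods' t-test p was 0.0514, just outside the study's criterion. The difference was 0.85, 0.80 and 0.75 without KO stress replicate 2, 4 or 5 and 0.79 and 0.68 without WT stress replicate 2 or 3, and each of these 5 omissions ended the unadjusted call. KO con (8.30 ± 0.69) and WT con (8.51 ± 0.78) differed by -0.21, within the spread. WT stress and WT con differed by -0.75, KO stress and KO con by 0.36, and the interaction was 1.11 (SE 0.57), and none of these passed. Without the least correlated arrays, WT stress replicate 1 and WT con replicate 1, WT stress lay below WT con by more, at -1.14 (unadjusted p = 0.0153 in limma), and the interaction was 1.497 (unadjusted p = 0.0172 in limma). These fits ignore the pairing of the WT arrays. With the replicate number as a block within all WT arrays, the difference of -0.75 did not pass (unadjusted p = 0.126 in limma).

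Hs3st4, the next 3-O-sulfotransferase, went the other way. In KO stress it had 7.72, 7.68, 7.42, 7.45 and 7.35, and in WT stress 7.74, 7.76, 7.59, 8.18 and 8.15. In KO con it had 8.24, 7.62, 7.91, 7.68 and 7.53, and in WT con 7.69, 7.43, 7.81, 7.68 and 7.46. Of the KO stress arrays 3 lay below all WT stress arrays and 3 below all KO con arrays, while 2 WT stress arrays lay above all WT con arrays.

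KO stress averaged 7.52 ± 0.17 and WT stress 7.88 ± 0.26 for Hs3st4 (SD, n = 5 each), a difference of -0.36 (SE 0.14) with an unadjusted p of 0.0173 and an adjusted p of 0.530 in limma, and a p of 0.0397 in the exact two-sided permutation test. Stress was accompanied by a difference of -0.27 in KO and of 0.27 in WT, so that the interaction was -0.54 (SE 0.19), with an unadjusted p of 0.0120 and an adjusted p of 1.00 in limma. The interaction passed the unadjusted threshold in all 27 alternatives, at -0.43 to -0.61 with each array left out in turn. These alternatives reuse the same arrays and are no separate support, and none of them blocked the WT arrays alone. With the replicate number as a block within the WT arrays, the WT difference of 0.27 did not pass (unadjusted p = 0.0972 in limma). The difference between KO stress and WT stress no longer passed without WT stress replicate 4 (-0.29, unadjusted p = 0.0566 in limma over all probe sets). The same held without WT stress replicate 5 (-0.29, unadjusted p = 0.0542 in limma).

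Hs3st1 and Hs3st5, the 3-O-sulfotransferases of the antithrombin-binding site, differed little. Hs3st1 had a mean of 7.28 ± 0.23 in KO stress, 7.30 ± 0.24 in KO con, 7.23 ± 0.20 in WT stress and 7.22 ± 0.31 in WT con. Hs3st5 had 6.59 ± 0.08 in KO stress, 6.78 ± 0.15 in KO con, 6.69 ± 0.29 in WT stress and 6.69 ± 0.13 in WT con. For Hs3st5 the difference of -0.19 between KO stress and KO con had a p of 0.0397 in the exact two-sided permutation test and an unadjusted p of 0.110 in limma, where the spread is pooled over the 4 groups. Hs3st6, the remaining 3-O-sulfotransferase, was at 5.80 ± 0.15 in KO stress and 5.89 ± 0.35 in WT stress, a difference of -0.08.

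**Figure D3:**
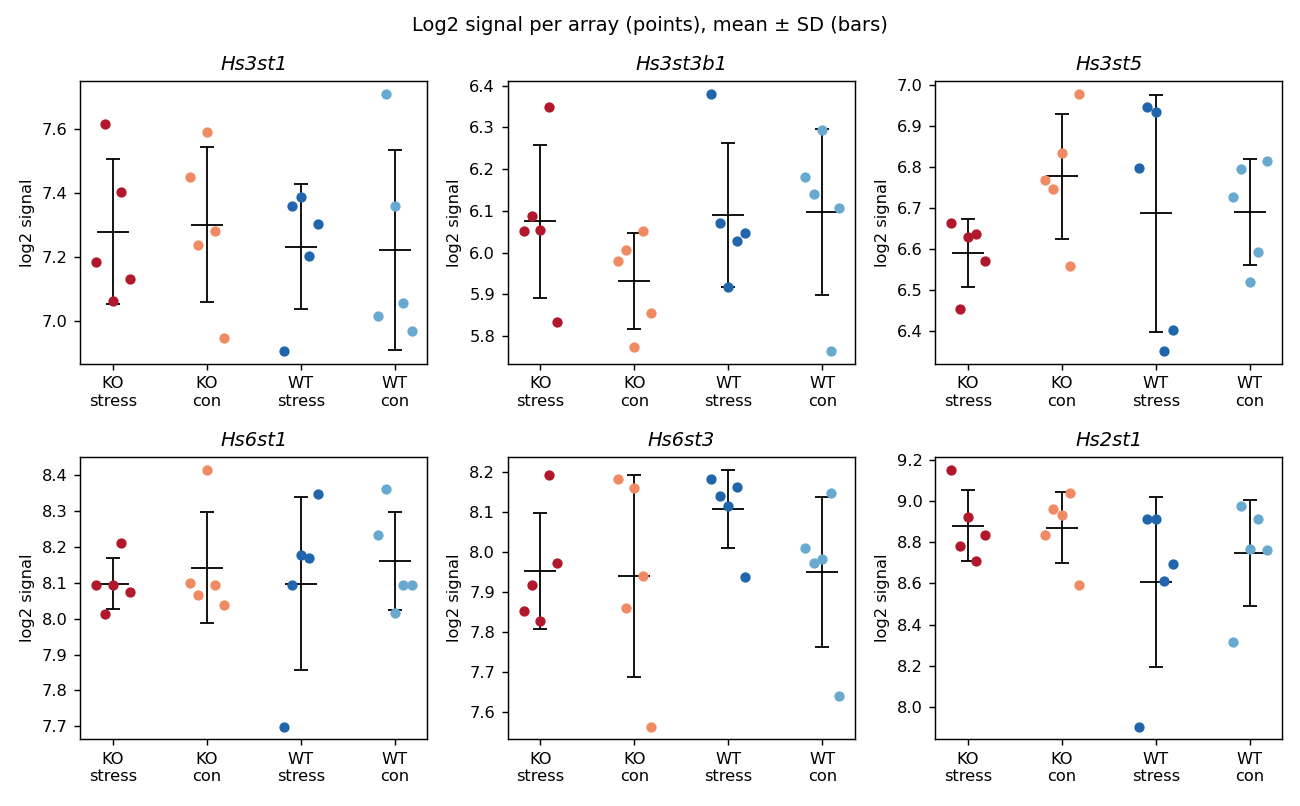
Log2 signal (y axis) of Hs3st1, Hs3st3b1, Hs3st5, Hs6st1, Hs6st3 and Hs2st1 in KO stress, KO con, WT stress and WT con (x axis), with a point per array and bars for mean ± SD (n = 5). Groups overlap in all 6 genes, and WT stress replicate 1 is the lowest array for Hs6st1 (7.70) and Hs2st1 (7.91).

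Among the 6-O-sulfotransferases, Hs6st2 was the gene that differed. Its log2 signal was 9.52, 9.43, 9.41, 9.20 and 9.61 in KO stress and 8.54, 9.42, 9.32, 9.12 and 8.99 in WT stress. KO con had 9.06, 9.45, 9.46, 9.53 and 9.34, and WT con 9.07, 9.26, 9.20, 9.59 and 9.29. WT stress replicate 1 was the lowest of all 20 arrays, and 3 KO stress arrays were above all WT stress arrays.

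For Hs6st2 the mean was 9.43 ± 0.15 in KO stress and 9.08 ± 0.34 in WT stress (SD, n = 5 each), a difference of 0.35 (SE 0.14) with an unadjusted p of 0.0216 and an adjusted p of 0.530 in limma, and a p of 0.0556 in the exact two-sided permutation test. Without WT stress replicate 1 the difference was 0.22 and no longer passed in limma, and without KO stress replicate 5 it was 0.31 and did not pass either. Hs6st1 had 8.10 ± 0.07 in KO stress, 8.14 ± 0.15 in KO con, 8.10 ± 0.24 in WT stress and 8.16 ± 0.14 in WT con. Hs6st3 had 7.95 ± 0.15 in KO stress, 7.94 ± 0.25 in KO con, 8.11 ± 0.10 in WT stress and 7.95 ± 0.19 in WT con, and none of its comparisons passed without the block. With the replicate number as a block within the WT arrays, its difference of 0.16 between WT stress and WT con had an unadjusted p of 0.0387 in limma.

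Hs2st1, the only 2-O-sulfotransferase of heparan sulfate, had 8.88 ± 0.17 in KO stress, 8.87 ± 0.17 in KO con, 8.61 ± 0.41 in WT stress and 8.75 ± 0.26 in WT con. The difference of 0.27 (SE 0.16) between KO stress and WT stress did not pass (unadjusted p = 0.116 in limma). Its WT stress mean holds the value of 7.91 in replicate 1, whereas the other 4 arrays of that group lay at 8.61 or higher. Without WT stress replicate 1 and WT con replicate 1 the difference was 0.097.

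Genes of the family were also compared array by array, after the group mean was subtracted from each value, in 45 pairs over 20 arrays with 100000 permutations within groups. Hs6st2 and Hs2st1, which act on neighbouring residues of the chain, deviated together (Pearson's r = 0.794, permutation p = 0.00092, adjusted 0.0414, and Spearman's rho = 0.699, permutation p = 0.0026, adjusted 0.117). With the arrays farthest from the median of Hs6st2, WT stress replicates 1 and 2, left out, r was 0.610. Hs3st3b1 and Hs6st2 deviated in opposite directions (r = -0.716, permutation p = 0.00206, adjusted 0.0459, and rho = -0.611, permutation p = 0.00942, adjusted 0.141), with r = -0.542 without WT con replicate 4 and WT stress replicate 1. Hs3st2 and Hs3st5 did so as well (r = -0.660, permutation p = 0.00306, adjusted 0.0459, and rho = -0.624, permutation p = 0.00704, adjusted 0.141), with r = -0.670 without KO con replicate 4 and WT con replicate 1. These 3 pairs passed by r and none passed by rho.

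Hs3st2 and Hs3st3a1, which share the TGACGTCA match shown above, had r = 0.572 (permutation p = 0.0128, adjusted 0.136) and rho = 0.515 (permutation p = 0.0325, adjusted 0.282), and r = 0.530 without KO con replicate 4 and WT con replicate 1. This pair did not pass the correction. Hs3st1, whose window held no match to the motifs searched, had r = 0.512 with Hs3st3a1 (permutation p = 0.0355, adjusted 0.228). Its rho was 0.512 (permutation p = 0.0376, adjusted 0.282), and r was 0.386 without KO stress replicate 2 and WT con replicate 2. A link between the match and these correlations was not tested. Hs3st3a1 and its relative Hs3st3b1 had r = 0.196 (permutation p = 0.480, adjusted 0.965) and rho = 0.170 (permutation p = 0.508, adjusted 0.857), and r = 0.048 without KO stress replicates 1 and 4.

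**Figure D4:**
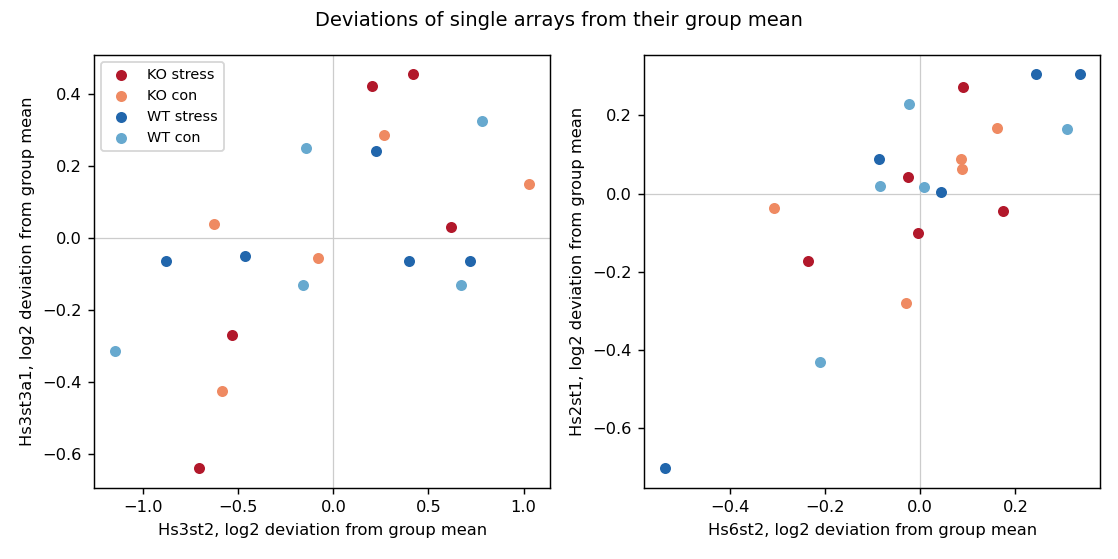
Deviation of each array from its group mean, in log2 units, for Hs3st3a1 (y axis) against Hs3st2 (x axis) on the left and for Hs2st1 (y axis) against Hs6st2 (x axis) on the right, with a point per array coloured by group. On the right the WT stress array farthest to the lower left is replicate 1, and r is 0.794 with it and 0.610 without it and WT stress replicate 2.

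The rest of the heparan sulfate pathway was examined in lists of 54 genes, of which 52 had a single probe set. Between KO stress and WT stress 6 of 52 were higher and 1 was lower at an unadjusted p of 0.05, or 13.5% beside the 9.28% of all probe sets, and the adjusted p was 0.530 for each of these 7. Among the core proteins 3 of 13 were higher and 1 lower in KO stress. Gpc3, a glypican that restrains hedgehog signalling, averaged 8.35 ± 0.11 in KO stress and 7.45 ± 0.41 in WT stress (SD, n = 5 each), a difference of 0.90 (SE 0.27, unadjusted p = 0.00403 in limma). The lowest KO stress array of Gpc3 was at 8.19 and the highest WT stress array at 7.90, so that these groups did not overlap. Gpc3 had been listed by the study for this comparison on the same arrays. Its p, the gap between the groups and its place in the counts therefore describe that choice and are no separate test. Without WT stress replicate 1 and WT con replicate 1, 5 of the 52 genes were higher and 1 lower (11.5% beside 5.09%), with Gpc3 at 0.74, Sulf2 at 0.34, Sdc2 at 0.27, Papss2 at 0.27, Sdc3 at 0.24 and Gpc1 at -0.27, and Ids (0.19) no longer passed.

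Gpc3 also differed between WT stress and WT con (8.16 ± 0.67) by -0.71, and its interaction was 1.03 (unadjusted p = 0.0166, adjusted p = 1.00 in limma). Both contrasts share arrays with the comparison for which the study listed Gpc3, so their p-values are no separate test either. Gpc1, a glypican of neurons, ran opposite, with 7.98 ± 0.08 in KO stress and 8.23 ± 0.19 in WT stress, a difference of -0.25 and an interaction of -0.31 (unadjusted p = 0.0301 in limma). The syndecans Sdc2 and Sdc3, transmembrane carriers of the chain, were higher in KO stress by 0.45 and 0.39. Sdc2 averaged 8.93 ± 0.16 in KO stress and 8.47 ± 0.44 in WT stress, and Sdc3 9.89 ± 0.09 in KO stress and 9.501 ± 0.41 in WT stress.

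Of the enzymes that edit or feed the chain, Sulf2, an extracellular 6-O-endosulfatase, averaged 9.72 ± 0.16 in KO stress and 9.23 ± 0.35 in WT stress, a difference of 0.50 (unadjusted p = 0.0306 in limma). The KO stress arrays of Sulf2 began at 9.54 and the WT stress arrays ended at 9.51. How many of all probe sets were separated in this way was not counted. Without WT stress replicate 1 and WT con replicate 1 the difference of Sulf2 was 0.34. Sulf1, its relative, had 8.39 ± 0.47 in KO stress and 8.07 ± 1.02 in WT stress and did not pass. Papss2, which makes the sulfate donor PAPS, was 0.45 higher in KO stress, at 7.98 ± 0.11 against 7.53 ± 0.47 in WT stress. Ids, the lysosomal iduronate 2-sulfatase, was 0.27 higher, at 10.87 ± 0.11 in KO stress and 10.60 ± 0.26 in WT stress.

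No gene passed in this comparison among the 3 N-deacetylase sulfotransferases, 5 chain polymerases, 6 linker enzymes and the epimerase Glce, nor among 8 chondroitin and dermatan sulfotransferases, which build the other sulfated chains of the brain. Between KO con and WT con 1 of 52 genes passed (1.92% beside 3.57%), Ext1, a polymerase of the chain, which was 0.25 higher in KO con, at 8.66 ± 0.11 against 8.42 ± 0.26 in WT con. Between WT stress and WT con 2 of 52 passed (3.85% beside 3.54%), Gpc3 as given above and Gpc1, with a difference of 0.24. These WT counts come from the fit without pairing. With the replicate number as a block within the WT arrays the 2 that passed were Gpc3 (-0.71, unadjusted p = 0.0179 in limma) and Sulf2 (-0.27, unadjusted p = 0.0253 in limma), 3.85% beside 3.59%, and Gpc1 did not pass (unadjusted p = 0.154 in limma). None of 52 passed between KO stress and KO con in limma. Sulf1, 1 of the 52, had been listed by the study for this comparison on the same arrays. It averaged 8.39 ± 0.47 in KO stress and 7.73 ± 0.34 in KO con. The difference was 0.65, or 1.57-fold (unadjusted p = 0.0846 in limma). The study compared the 2 groups alone, whereas limma pooled the spread over the 4 groups. Since Sulf1 was listed on these arrays, its p is no separate test. In the interaction the 2 that passed were Gpc3 and Gpc1 (3.85% beside 2.52%). Without WT stress replicate 1 and WT con replicate 1, 5 of 52 passed in the interaction (9.62% beside 4.75%), namely Gpc3 (1.12), Sulf2 (0.59) and Col18a1 (0.34) above 0 and Gpc1 (-0.38) and Extl2 (-0.32) below 0.

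**Figure D5:**
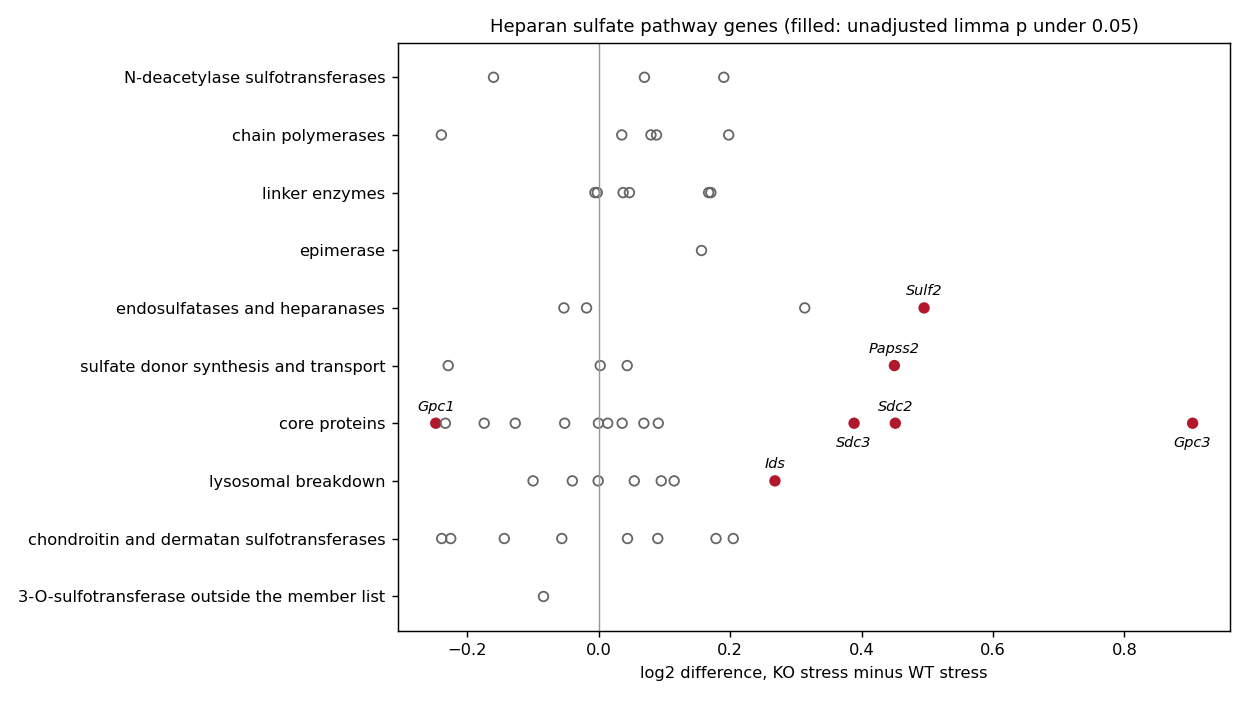
Log2 difference, KO stress minus WT stress (x axis), of 52 heparan sulfate pathway genes by role (y axis), with a point per gene, filled where the unadjusted limma p was under 0.05. The filled points are Gpc3, Sdc2, Sdc3, Sulf2, Papss2 and Ids above 0 and Gpc1 below 0.

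Markers of cell types that an amygdala dissection can hold differed between the same groups. KO stress minus WT stress was positive for 11 of 11 markers of ependyma and motile cilia (median 0.63), 12 of 12 of meninges and fibroblasts (0.57), 10 of 11 of choroid plexus (0.54), 11 of 12 of astrocytes (0.21) and 6 of 6 of oligodendrocyte precursors (0.18), against a median of -0.03 over all probe sets. For pallial excitatory neurons, whose markers define much of the amygdala, it was positive for 2 of 10 (median -0.22), while it was positive for 8 of 12 of GABAergic neurons (0.29), 10 of 12 of hypothalamic and medial amygdala neurons (0.29), 5 of 10 of striatal and central amygdala neurons (-0.04) and 6 of 8 of thalamic neurons (0.06). The remaining lists had 9 of 11 for endothelium (0.15), 9 of 11 for oligodendrocytes (0.04) and 5 of 9 for microglia (0.01). At an unadjusted limma p under 0.05, 5 of 11 cilia, 1 of 12 meningeal and 0 of 11 choroid plexus markers were higher in KO stress. The same held for 3 of 12 astrocyte, 3 of 12 GABAergic, 4 of 12 hypothalamic and medial amygdala, 1 of 6 oligodendrocyte precursor and 1 of 11 endothelial markers. Of the pallial markers 1 of 10 was lower, and no marker of the other lists passed. Over all probe sets 9.28% passed in either direction, so that 1 marker in a list of 10 to 12 lies near that share. None of the measured markers of these lists had a mean under 5. The score of the cilia markers, the mean of the list after each gene was centred over the 20 arrays, ranged from 0.00 to 0.75 in KO stress and from -0.98 to 0.32 in WT stress, and that of choroid plexus from -0.54 to 1.97 in KO stress and from -1.003 to 2.71 in WT stress. For astrocytes the score ranged from 0.03 to 0.26 in KO stress and from -0.73 to 0.16 in WT stress. For oligodendrocyte precursors it ranged from 0.01 to 0.09 in KO stress and from -0.44 to 0.09 in WT stress. Marker counts and medians were not repeated without WT stress replicate 1 and WT con replicate 1. The part of these markers in the differences of the sulfotransferases was not tested.

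Scores of 13 marker lists were related to Hs3st3a1, Hs3st2, Hs3st4 and Hs6st2 within groups, in 52 relations over 20 arrays. Hs6st2 followed the score of oligodendrocyte precursors (r = 0.872, permutation p = 0.00017, adjusted 0.00884, and rho = 0.738, permutation p = 0.00222, adjusted 0.0780), with r = 0.742 without WT stress replicates 1 and 2. No other relation passed by r after adjustment. Hs6st2 also had r = 0.715 with oligodendrocytes (permutation p = 0.00335, adjusted 0.0634, and rho = 0.663, permutation p = 0.00423, adjusted 0.0780). With GABAergic neurons its r was 0.701 (permutation p = 0.00978, adjusted 0.102, and rho = 0.653, permutation p = 0.0112, adjusted 0.106). Without WT stress replicates 1 and 2 these r were 0.482 and 0.446. Hs3st2 had r = -0.691 with the score of striatal and central amygdala neurons (permutation p = 0.00366, adjusted 0.0634, and rho = -0.635, permutation p = 0.00649, adjusted 0.0844), with r = -0.608 without KO con replicate 4 and WT con replicate 1. Its r with the cilia score was 0.640 (permutation p = 0.00578, adjusted 0.0751, and rho = 0.585, permutation p = 0.0143, adjusted 0.106), and 0.527 without the same 2 arrays. Hs3st3a1 had r = 0.493 with the cilia score (permutation p = 0.0141, adjusted 0.105, and rho = 0.522, permutation p = 0.0122, adjusted 0.106), and 0.541 without KO stress replicates 1 and 4.

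The patterns most like that of Hs3st3a1 were sought among 19313 probe sets with 1 symbol and a mean of 5 or more. Over the 20 arrays these were Serpinb6b (r = 0.856), Tle3 (0.856), Kcnmb1 (0.844), Pdlim1 (0.839) and S100a11 (0.835). After subtraction of the group means the most alike were Gpr4 (0.889), Bcl2l11 (0.869), Musk (0.862), Ldlrad3 (0.852) and Cdk6 (0.844). No gene stood in both sets of 5, and no p is attached to these values, since the genes were picked as the highest of many.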

How the data were processed

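The authors hybridized amygdala RNA of single mice to whole-transcript gene arrays, used ArrayAssist to turn CEL files into ExonRMA signals, with the variance then stabilized, and deposited log2 values for 28767 probe sets. These deposited log2 values were used without further scaling, and 0 columns lacked a sample. No source used here gives the genome build of the array design. Gene symbols came from the platform's probe table (21776 probe sets with 1 symbol, 1618 with several, 5373 with none), and probe sets with several symbols were not used for naming. For 14.6% of the probe sets the mean was under 5. The number of arrays, 5 per group, limits the precision.

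All comparisons used limma 3.58.1 in R 4.3.3, with lmFit on 4 group means over 20 arrays and eBayes (16 residual and 2.1 prior degrees of freedom), checked on simulated data, and Benjamini-Hochberg adjustment over all probe sets. P-values of single genes between 5 and 5 arrays also come from exact two-sided permutation tests. The genes of the family, the pathway lists, the marker lists and the tests were chosen with earlier results of these data known. Named with values were all 10 members, their differences with p where the unadjusted p was under 0.05, pathway genes under 0.05 in KO stress against WT stress or in the interaction (at most 4 per list), Sulf1 and Hs3st6, and the 5 genes most like Hs3st3a1 by each measure. Ext1, Col18a1, Extl2, Hs3st5, Hs2st1 and the comparisons without a call that the text gives were added after their values were seen. The score of a marker list is the mean of its members, each centred over the 20 arrays, and lists used only genes with exactly 1 single-symbol probe set. The lists cover choroid plexus, ependyma and motile cilia, meninges and fibroblasts, endothelium, astrocytes, oligodendrocytes, oligodendrocyte precursors, microglia, pallial excitatory, GABAergic, striatal and central amygdala, hypothalamic and medial amygdala, and thalamic neurons.

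Arrays carry the numbers 1 to 5 within a group, and the labels leave out what a shared number means. Same-numbered WT stress and WT con arrays deviated together in 5 of 5 pairs (r = 0.162 to 0.420, each over 0.1), and in the other pairs of groups 1 to 3 of 5 did, so that only WT arrays were treated as paired. Alternatives were the methods' t-test, limma on 2 groups, quantile normalization, median centring, a filter at a mean of 5, array weights, robust eBayes with a trend, the replicate block, and arrays left out. Correlations and figures were computed in Python 3.11.15 with numpy 2.4.6, scipy 1.17.1 and matplotlib 3.10.9.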

Additional observations from a re-analysis of the deposited data

Results flagged for a closer look

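Dixon's test was applied to the 10 genes in each of the 4 groups, 40 sets of 5 arrays, and chance flags about 1 in 20 such sets. It set apart 3 single arrays. Hs3st3a1 in WT stress replicate 5 had 6.26, while the other 4 arrays lay between 5.95 and 5.97, where 3 of the values are identical. Hs6st1 in KO con replicate 3 had 8.42, while the others lay between 8.04 and 8.10. Hs6st3 in WT stress replicate 5 had 7.94, while the others lay between 8.12 and 8.18.

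The response of Hs3st4 to stress differed between the genotypes, with an interaction of -0.54 (KO minus WT) at an unadjusted p of 0.0120 in limma and an adjusted p of 1.00. Stress was accompanied by -0.27 in KO and 0.27 in WT.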

How the results depend on the processing

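The difference of Hs3st3a1 between KO stress and WT stress stayed positive in all 29 alternatives, at 0.55 to 0.82 with arrays left out in turn and 0.63 to 0.70 otherwise. Since the gene was chosen for this difference on the same arrays, the unchanged sign is a description and no support for it. Its difference between KO con and WT con (-0.03) turned to 0.0088 with quantile normalization and ranged from -0.11 to 0.071 with each array left out, turning positive without KO con replicate 1 (0.071) and without WT con replicates 2 (0.028) and 3 (0.047). Counts of the 9 other genes at the unadjusted threshold moved under some settings. The share of all probe sets passing moved as well. Without both least correlated arrays it went from 9.28% to 5.09% between KO stress and WT stress and from 2.52% to 4.75% in the interaction. With the block within the WT arrays it was 3.59% between WT stress and WT con, against 3.54%. For the other settings the share is not given, so their counts cannot be set against the whole array. Between KO stress and WT stress 3 passed, against 1 (Hs3st4) by the methods' t-test and 1 to 3 with arrays left out (1 without KO stress replicate 5). Between KO con and WT con 0 passed, and 0 to 1 with arrays left out (1, Hs3st3b1, without WT con replicate 4). Between KO stress and KO con 0 passed, against 1 (Hs3st5) by the methods' t-test, with limma on the 2 groups and with median centring, and 0 to 1 with arrays left out (Hs3st4 without KO stress replicate 1 or 2 or KO con replicate 2 or 5). Between WT stress and WT con 0 passed, against 1 (Hs3st2) with array weights, with the replicate block over all arrays and without both least correlated arrays, 1 (Hs6st3) with the replicate block within the paired WT arrays, and 0 to 1 with arrays left out (Hs3st4 without KO con replicate 1, WT stress replicate 3 or WT con replicate 3, and Hs3st2 without WT stress replicate 4 or WT con replicate 1). In the interaction 1 passed, against 2 (Hs3st4 and Hs3st2) with array weights, with the replicate block over all arrays and without both arrays, and 1 to 2 with arrays left out (2 without KO stress replicate 1, KO con replicate 4, WT stress replicate 4 or WT con replicate 1). The cause of these changes was not tested. Hs3st2 passed the unadjusted threshold in 23 of 29 alternatives, Hs3st4 in 27 and Hs6st2 in 24, where Hs6st2 fell short by the methods' t-test, with array weights (0.21) and without both arrays (0.22) besides the omissions named with its values. No member passed after adjustment in any alternative run. Array signal without detection calls limits what can be said of probe sets near the low end.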
